A study of Mus musculus with 30 samples.

Results

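Oxidative phosphorylation (OXPHOS) subunit genes were followed in B16 melanomas that secrete IFNα4 or IFNα9. The genes were taken by symbol, as the nuclear-encoded subunits of NADH dehydrogenase (complex I, Nduf genes), succinate dehydrogenase (complex II, Sdh genes), the cytochrome bc1 complex (complex III, Uqcr genes), cytochrome c oxidase (complex IV, Cox genes and Ndufa4) and ATP synthase (complex V, Atp5 genes), where the 30 tumors averaged 10 counts or more. Of the 39676 genes listed, 82 symbols matched and 73 genes met every condition, among 15926 genes tested. There were 33 genes of complex I, 4 of complex II, 8 of complex III, 13 of complex IV and 15 of complex V. The other symbols were 5 with pseudogene names, the muscle forms Cox6a2, Cox7a1 and Cox8b, and Cox7b2, whose mean was 0.0 counts. Cox4i2, with a mean of 16 counts, was the lowest gene kept. In the annotation, 69 of the 73 are protein-coding, and Ndufa11b, Ndufb4c, Ndufs6b and Cox6c2 are processed pseudogenes, that is, copies made from a messenger RNA. The 13 subunits encoded by mitochondrial DNA, and several nuclear subunits such as Ndufs4, Ndufa6, Cox8a, Ndufa4l2 and Cox7a2l, were not analysed here.

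RNA from whole tumors was sequenced on day 8 after inoculation, with 10 tumors of each of 3 types, labelled as biological replicates. B16-GFP tumors grew from B16-F10 melanoma cells carrying a GFP-only control vector, B16-IFNA4 tumors from cells secreting IFNα4 and B16-IFNA9 tumors from cells secreting IFNα9, a type I interferon (IFN-I) that is another member of the same family. All 3 lines also carried glycoprotein B (gB) of herpes simplex virus and firefly luciferase, and all were injected under the skin of female C57BL/6 mice. The cells were transduced with retroviral vectors and selected as stable lines, and each type came from its own line, so that a difference between types cannot be told apart from a difference between lines. Counts for Ifna4 ran from 81 to 188 in B16-IFNA4 tumors and for Ifna9 from 55 to 148 in B16-IFNA9 tumors, and neither gene had a count in the other types. The total per tumor ran from 14598517 to 19788383 counts. Of all counts, OXPHOS genes took a median of 1.31% in B16-GFP, 0.758% in B16-IFNA4 and 0.748% in B16-IFNA9 tumors. B16-GFP tumor 7 and B16-IFNA9 tumor 5 stood apart from their types. B16-GFP tumor 7 held the highest value of its type for 67 of the 73 genes, and B16-IFNA9 tumor 5 for 63. The former also had the lowest total, 14598517 counts, and the lowest TMM scaling factor, 0.7678, where the highest was 1.097 (B16-GFP tumor 1). A lower factor gives a higher scaled level.

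Complexes I to IV pass electrons from NADH and succinate to oxygen and, at complexes I, III and IV, pump protons across the inner mitochondrial membrane; complex V uses the returning protons to make ATP. Each complex is assembled from several different proteins in fixed ratio, and complexes I, III, IV and V combine subunits from nuclear and mitochondrial genes. In melanoma, a part of the tumors relies on this pathway under control of the coactivator PGC-1α (Ppargc1a), which the melanocyte factor MITF can drive.

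OXPHOS genes were lower in both IFN-I–secreting tumor types, in all 5 complexes. Levels are given as CPM, read counts scaled to library size with TMM factors, and changes as log2 fold changes from edgeR's quasi-likelihood fit, called at an adjusted p under 0.05 over all genes tested. In B16-IFNA4 against B16-GFP tumors, 72 of the 73 genes fell and 1 rose, where 34.1% of all genes tested fell and 31.3% rose. In B16-IFNA9 against B16-GFP tumors, 70 fell and 0 rose, beside 28.9% and 26.9% of all genes. The median log2 fold change over the 73 genes was -0.91 in B16-IFNA4 tumors (53.4% of the B16-GFP level) and -0.96 in B16-IFNA9 tumors (51.5%), while the median over all genes was 0.01 and 0.00. The middle of the distribution was narrow, with quartiles at -1.14 and -0.74 in B16-IFNA4 tumors and at -1.10 and -0.74 in B16-IFNA9 tumors, and the median SE of a single gene was 0.15 in both comparisons. A fall of more than 1 on the log2 scale was measured for 27 genes in B16-IFNA4 and 29 in B16-IFNA9 tumors. The 2 comparisons share their B16-GFP tumors and are not independent. Over the 69 protein-coding genes, 68 fell and 1 rose in B16-IFNA4 tumors, and 67 fell and 0 rose in B16-IFNA9 tumors.

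The separation was also visible tumor by tumor. For 32 of the 73 genes, each of the 10 B16-IFNA4 tumors lay below each of the 10 B16-GFP tumors, which held for 10.0% of all genes tested. In B16-IFNA9 tumors this held for 23 of the 73, against 3.35% of all genes. Without B16-IFNA9 tumor 5 it held for 50 of the 73, against 5.09% of all genes. That tumor was singled out by its high levels of these same genes. The larger count follows in part from this choice and adds no support. The mean log2 CPM over the 73 genes was 6.76 ± 0.42 (SD, n = 10) in B16-GFP tumors, 5.90 ± 0.18 in B16-IFNA4 and 5.87 ± 0.22 in B16-IFNA9 tumors. B16-GFP tumors ranged from 6.29 to 7.71 with a median of 6.70, B16-IFNA4 tumors from 5.64 to 6.17 with a median of 5.91, and B16-IFNA9 tumors from 5.64 to 6.44 with a median of 5.81. No B16-IFNA4 tumor reached the lowest B16-GFP tumor, and in B16-IFNA9 tumors tumor 5 did. Spread between tumors of a type was largest in B16-GFP tumors, with a median coefficient of variation per gene of 39.9%, or 21.8% without tumor 7, against 15.1% in B16-IFNA4 and 18.1% in B16-IFNA9 tumors. Without B16-GFP tumor 7, 70 genes fell in B16-IFNA4 tumors with a median of -0.73 and 70 fell in B16-IFNA9 tumors with a median of -0.78.

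**Figure D1:**
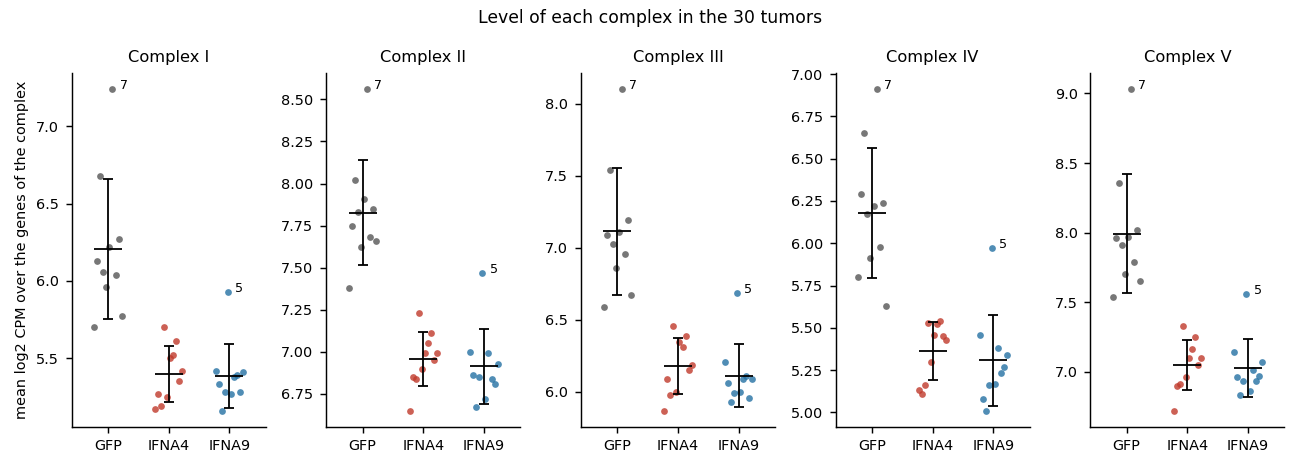
Mean log2 CPM over the genes of each complex (y axis) in each tumor, by tumor type (x axis); each point is 1 tumor, and the black bar with error bars gives the mean ± SD of 10 tumors. B16-GFP tumor 7 and B16-IFNA9 tumor 5, numbered in the plot, are the highest of their types in all 5 complexes, and the means of both IFN-I–secreting types lie below those of B16-GFP tumors in each panel.

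In a whole tumor, fewer cells of a type and less RNA per cell cannot be told apart, so the composition of the tumors is given beside these changes. Melanocyte genes, which mark the B16 cells, fell in both types: 6 of 6 tested were lower in B16-IFNA4 tumors (median log2 fold change -1.96) and 6 of 6 in B16-IFNA9 tumors (-1.03). Their summed level ran from 7938 to 26030 CPM in B16-GFP tumors, from 2417 to 3919 in B16-IFNA4 and from 3669 to 9583 in B16-IFNA9 tumors. B16-GFP tumor 7 held the 26030 CPM. Leukocyte genes rose in both types, 8 of 8 each, with medians of 1.39 and 0.95; their sum ran from 278 to 921 CPM in B16-GFP, from 1255 to 2529 in B16-IFNA4 and from 928 to 1761 in B16-IFNA9 tumors. The 278 CPM were those of B16-GFP tumor 7. Of the T and NK cell genes, 8 of 8 rose in B16-IFNA4 and 7 of 8 in B16-IFNA9 tumors, with sums of 4.38 to 63.5, 89.5 to 216 and 63.7 to 156 CPM in B16-GFP, B16-IFNA4 and B16-IFNA9 tumors. Erythroid genes fell, 5 of 5 in both types (medians -1.91 and -2.19), with sums of 545 to 3019 CPM, 184 to 900 CPM and 130 to 620 CPM in the same order. Of 6 endothelial genes tested, 4 fell in each type and 1 rose in B16-IFNA4 tumors, with sums of 172 to 439, 240 to 344 and 123 to 222 CPM. Macrophage genes went both ways in B16-IFNA4 tumors, with 1 of 6 higher and 2 lower, and 1 of 6 was higher in B16-IFNA9 tumors; their sums were 431 to 1943, 884 to 1534 and 908 to 1738 CPM. For comparison, 34.1% of all genes tested fell and 31.3% rose in B16-IFNA4 tumors, and 28.9% fell and 26.9% rose in B16-IFNA9 tumors. No marker of these lists was at 0 in all tumors of a type. The part of these shifts in the fall of OXPHOS genes was not tested.

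Complex I, which takes electrons from NADH, fell in 33 of 33 genes in B16-IFNA4 tumors (median -0.86) and in 32 of 33 in B16-IFNA9 tumors (-0.88). Ndufs1, the largest iron-sulfur subunit of the electron path, measured between 240 and 441 CPM (median 262) in B16-GFP tumors, between 122 and 179 (134) in B16-IFNA4 and between 109 and 176 (139) in B16-IFNA9 tumors. All tumors of both IFN-I–secreting types were thus below all B16-GFP tumors. Its log2 fold change was -1.05 ± 0.11 (SE, adjusted p = 1.11e-09) in B16-IFNA4 and -1.04 ± 0.11 (adjusted p = 2.9e-09) in B16-IFNA9 tumors. Ndufv1, which binds NADH and its flavin cofactor, fell by less, from 93.2 ± 25.8 CPM (SD, n = 10) to 56.6 ± 11.4 and 52.2 ± 12.9 CPM, or -0.72 ± 0.15 (adjusted p = 0.000107) and -0.84 ± 0.15 (adjusted p = 2.59e-05). Its groups overlapped, with a lowest B16-GFP tumor at 55.9 CPM. Over the complex, changes ran from -1.22 to -0.49 in B16-IFNA4 and from -1.37 to -0.34 in B16-IFNA9 tumors. The weakest call was Ndufa7, an accessory subunit, at -0.49 ± 0.20 (adjusted p = 0.036) in B16-IFNA4 tumors, which lost its call without B16-GFP tumor 7 (adjusted p = 0.0942). Ndufb4c, a copy without introns on chromosome 15 (73809507 to 73809896, minus strand, GRCm38), shares all of its 50-base stretches with Ndufb4, so that its -1.20 and -1.28 cannot be told apart from the -1.14 and -1.22 of Ndufb4.

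Complex II, the succinate dehydrogenase of the citric acid cycle, fell in 4 of 4 genes in both types, with medians of -0.96 and -1.02, but its members moved by unlike amounts. Sdha, the flavoprotein that oxidizes succinate, measured 280 to 394 CPM (median 334) in B16-GFP tumors, 225 to 321 (254) in B16-IFNA4 and 207 to 326 (231) in B16-IFNA9 tumors. Sdhb, its iron-sulfur partner, measured 158 to 663 CPM (median 246) in B16-GFP, 83.5 to 130 (105) in B16-IFNA4 and 86.8 to 184 (109) in B16-IFNA9 tumors. For Sdhb each B16-IFNA4 tumor was below each B16-GFP tumor, while the groups overlapped for Sdha. The log2 fold change of Sdha was -0.33 ± 0.08 in B16-IFNA4 tumors (95% interval -0.49 to -0.18, adjusted p = 0.000309) and -0.45 ± 0.08 in B16-IFNA9 tumors (-0.60 to -0.30, adjusted p = 1.3e-05), the smallest falls among called subunits in both comparisons. That of Sdhb was -1.41 ± 0.18 (-1.78 to -1.05, adjusted p = 6.21e-08) and -1.30 ± 0.18 (-1.66 to -0.94, adjusted p = 5.48e-07). The membrane anchors lay between them, Sdhc at -0.83 ± 0.13 and -0.96 ± 0.13 and Sdhd at -1.09 ± 0.13 and -1.08 ± 0.13. The ratio of Sdha to Sdhb in CPM ran from 0.422 to 1.86 in B16-GFP tumors (median 1.40), from 2.19 to 3.20 in B16-IFNA4 (2.50) and from 1.77 to 2.64 in B16-IFNA9 tumors (2.09). B16-IFNA4 ratios were all above the highest B16-GFP ratio, and of the B16-IFNA9 tumors tumor 5, the lowest of its type, lay below it. The lowest B16-GFP ratio was that of tumor 7, and without it the B16-GFP tumors ran from 1.09 to 1.86 (median 1.42). The ratio was chosen after its values were seen and was not tested. B16-GFP tumor 7 had the lowest Sdha, 280 CPM, and the highest Sdhb, 663 CPM, of its type.

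The promoter windows of the 2 genes, 250 bases before to 50 bases after the RefSeq start on GRCm38.p6, are shown because the 2 proteins form the catalytic part of the same enzyme and their RNAs changed by different amounts. They were searched on both strands for letters bound by 4 factors known for OXPHOS promoters, GCGCATGCG (NRF1), CCGGAAG (GABPA and other ETS factors), AAGATGGCG (YY1) and AAGGTCA (the estrogen-related receptors, ERR), none of which contains another. Capitals mark a match. Sdhb lies on the plus strand (window chr4:140961021-140961320) and Sdha on the minus strand (chr13:74350191-74350490).
Sdhb: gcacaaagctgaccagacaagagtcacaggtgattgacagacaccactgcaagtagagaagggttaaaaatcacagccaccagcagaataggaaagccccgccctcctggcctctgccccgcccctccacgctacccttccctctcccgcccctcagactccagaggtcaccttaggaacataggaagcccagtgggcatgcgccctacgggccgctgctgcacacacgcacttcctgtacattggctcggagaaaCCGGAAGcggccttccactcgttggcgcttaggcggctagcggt
Sdha: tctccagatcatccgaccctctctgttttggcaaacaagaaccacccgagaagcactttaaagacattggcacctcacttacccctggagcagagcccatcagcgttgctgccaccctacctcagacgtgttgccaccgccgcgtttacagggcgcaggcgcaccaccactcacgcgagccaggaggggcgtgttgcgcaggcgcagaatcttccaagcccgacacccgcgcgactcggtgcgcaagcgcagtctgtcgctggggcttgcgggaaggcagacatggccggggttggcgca
The Sdhb window holds 1 CCGGAAG just after the start, and none of these letter strings is in the Sdha window. Of the 73 genes, 58 had a window, and 26 of these (44.8%) held at least 1 of the 4 strings, against 17.6% of 27025 genes with a window. CCGGAAG was in 14 of the 58 (24.1%, against 9.93% of all), AAGGTCA in 8 (13.8%, against 5.38%), GCGCATGCG in 7 (12.1%, against 1.95%) and AAGATGGCG in 6 (10.3%, against 1.64%). The median log2 fold change was -0.93 in B16-IFNA4 and -0.99 in B16-IFNA9 tumors over the 26 genes with a string, and -0.87 and -0.90 over the 32 without one. The 27025 genes with a window outnumber the 15926 genes tested, so they include genes below the count limit, while all 58 subunit genes were tested. These percentages therefore do not compare OXPHOS genes with other tested genes, and their difference was not tested. A match is a run of letters and not a shown binding site.

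Complex III, which hands electrons from ubiquinol to cytochrome c, fell in 8 of 8 genes in both types (medians -0.89 and -0.96). Uqcr11, Uqcr10 and Uqcrq, which are accessory subunits, had the largest falls of the complex in both comparisons. Uqcr11 ran from 20.7 to 103 CPM (median 63.1) in B16-GFP, from 11.4 to 38.7 (24.1) in B16-IFNA4 and from 12.7 to 44.7 (18.1) in B16-IFNA9 tumors, with log2 fold changes of -1.43 ± 0.26 (adjusted p = 1.76e-05) and -1.59 ± 0.26 (adjusted p = 7.91e-06). The groups overlapped, since the lowest B16-GFP tumor lay within the range of both other types. Uqcrq had 69.0 ± 32.1 CPM in B16-GFP tumors, 28.9 ± 7.76 in B16-IFNA4 and 25.8 ± 8.28 in B16-IFNA9 tumors, or -1.25 ± 0.21 and -1.42 ± 0.21 (adjusted p = 6.1e-06 and 2.05e-06). Uqcr10 changed by -1.31 ± 0.21 and -1.41 ± 0.21. Uqcrfs1, the Rieske iron-sulfur protein, ran from 100 to 231 CPM in B16-GFP, from 50.6 to 95.9 in B16-IFNA4 and from 54.4 to 94.8 in B16-IFNA9 tumors, without overlap, at -0.83 ± 0.13 and -0.97 ± 0.13 (adjusted p = 1.72e-06 and 3.23e-07). Uqcrc1, a core protein, changed by -0.81 ± 0.14 and -0.89 ± 0.14 (adjusted p = 8.08e-06 and 3.68e-06), and Uqcrb, of which 25.4% of the 50-base stretches are shared with other genes, by -0.60 ± 0.13 and -0.53 ± 0.13. The windows of Uqcr11 (minus strand, chr10:80406772-80407071) and of Atp5o of complex V (minus strand, chr16:91931581-91931880) are printed because both genes are among the 4 largest falls in both comparisons.
Uqcr11: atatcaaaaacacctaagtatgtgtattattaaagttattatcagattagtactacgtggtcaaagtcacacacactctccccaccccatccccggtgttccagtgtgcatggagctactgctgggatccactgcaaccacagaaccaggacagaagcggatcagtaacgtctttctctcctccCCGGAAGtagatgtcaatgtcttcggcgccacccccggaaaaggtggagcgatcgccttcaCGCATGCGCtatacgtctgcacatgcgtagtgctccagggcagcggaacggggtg
Atp5o: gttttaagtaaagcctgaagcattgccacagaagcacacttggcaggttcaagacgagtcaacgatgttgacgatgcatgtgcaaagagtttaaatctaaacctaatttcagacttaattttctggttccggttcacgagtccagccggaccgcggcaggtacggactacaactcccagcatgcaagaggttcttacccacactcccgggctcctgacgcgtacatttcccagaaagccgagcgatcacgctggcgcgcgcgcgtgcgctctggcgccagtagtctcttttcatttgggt
The Uqcr11 window holds CCGGAAG and, on the other strand, GCGCATGCG across the start, while the Atp5o window holds none of the 4 strings.

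Complex IV, which reduces oxygen, fell in 12 of 13 genes in B16-IFNA4 tumors and rose in 1 (median -0.98), and fell in 11 of 13 in B16-IFNA9 tumors (-0.95). Cox4i1, the common form of a regulatory subunit, ran from 142 to 507 CPM (median 255) in B16-GFP tumors, from 98.4 to 168 (139) in B16-IFNA4 and from 86.2 to 182 (105) in B16-IFNA9 tumors, at -0.98 ± 0.17 (adjusted p = 1.26e-05) and -1.28 ± 0.17 (adjusted p = 4.96e-07). Ndufa4, now placed in complex IV, had 420 ± 198 CPM in B16-GFP tumors and fell without overlap to 163 ± 27.8 and 178 ± 40.7 CPM, or -1.36 ± 0.17 and -1.24 ± 0.17 (adjusted p = 6.16e-08 and 6.27e-07). Cox5a, which sits beside Cox4i1, also fell without overlap, from a range of 60.0 to 149 CPM to ranges of 30.5 to 49.0 and 27.2 to 49.0 CPM (-0.94 ± 0.13 and -1.08 ± 0.13, adjusted p = 4.02e-07 and 8.57e-08). Cox6a1, Cox7a2 and Cox7b, the general forms of subunits that have tissue forms, moved alike in direction, at -0.88 ± 0.15, -1.30 ± 0.19 and -1.06 ± 0.14 in B16-IFNA4 tumors and -0.95 ± 0.15, -1.19 ± 0.19 and -0.98 ± 0.14 in B16-IFNA9 tumors. Cox6c2, a processed pseudogene that shares 52.7% of its 50-base stretches with Cox6c, was at -1.03 ± 0.40 (adjusted p = 0.026) in B16-IFNA4 tumors, which became 0.0708 without B16-GFP tumor 7, and at -0.44 ± 0.39 (adjusted p = 0.346) in B16-IFNA9 tumors, where tumors 5 and 10 had 14 and 14.4 CPM and the median was 2.61 CPM.

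The alternative forms Cox4i2 and Cox6b2 were rare beside the general forms Cox4i1 and Cox6b1. Per kilobase of exon, B16-GFP tumors held a mean of 172 CPM of Cox4i1 and 2.29 CPM of Cox4i2, the form best known from lung and from low oxygen, and 439 CPM of Cox6b1 and 1.23 CPM of Cox6b2, the form known from testis. Cox4i2 ran from 0.253 to 3.95 CPM (median 1.76) in B16-GFP, from 0.153 to 0.816 (0.598) in B16-IFNA4 and from 0 to 1.18 (0.389) in B16-IFNA9 tumors. These levels stand on 4 to 63, 3 to 14 and 0 to 22 counts per tumor, and the groups overlapped. Its log2 fold changes, -1.71 ± 0.44 (adjusted p = 0.00118) and -1.98 ± 0.45 (adjusted p = 0.000434), were the largest falls among the 73 genes and the least precise. The log2 ratio of Cox4i2 to Cox4i1 was -7.31 ± 1.14 (SD, n = 10) in B16-GFP, -7.76 ± 0.67 in B16-IFNA4 and -7.88 ± 0.95 in B16-IFNA9 tumors. Against B16-GFP tumors the differences of -0.44 and -0.57 did not pass a two-sided permutation test with 100000 resamples (adjusted p = 0.47 for both over 3 comparisons, unadjusted p = 0.31 and 0.243), nor did the difference of -0.12 between the IFN-I–secreting types (adjusted p = 0.739). B16-GFP tumor 7 had the lowest ratio of its type, and without it the differences were -0.75 and -0.87 with an adjusted p of 0.0472 for both in the same permutation test. Rgs5, a pericyte gene, fell from 257 ± 79.0 CPM to 68.9 and 55.1 CPM in the same tumors (-1.90 ± 0.17 and -2.22 ± 0.17). Of 6 pericyte and vascular smooth muscle genes tested, 2 fell and 1 rose in B16-IFNA4 tumors and 3 fell in B16-IFNA9 tumors. Their summed level ran from 202 to 643, 197 to 299 and 112 to 251 CPM in B16-GFP, B16-IFNA4 and B16-IFNA9 tumors, none was at 0 in all tumors of a type, and their part in the fall of Cox4i2 was not tested.

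Cox6b2 was the only subunit gene that rose. It ran from 0.447 to 2.09 CPM (median 1.40, 5 to 39 counts) in B16-GFP, from 1.19 to 3.20 (2.12, 20 to 55 counts) in B16-IFNA4 and from 0.739 to 3.07 (1.78, 12 to 58 counts) in B16-IFNA9 tumors. Its log2 fold change was 0.66 ± 0.24 (adjusted p = 0.0169) in B16-IFNA4 tumors and 0.41 ± 0.24 (adjusted p = 0.148) in B16-IFNA9 tumors, and the difference between these types, -0.25 ± 0.24 (95% interval -0.73 to 0.23), did not pass the test (adjusted p = 0.511). All 3 groups overlapped, and the lowest B16-GFP value was that of tumor 7. Cox6b1, the general form, fell in the same tumors, at -0.85 ± 0.14 and -0.74 ± 0.14 (adjusted p = 9.56e-06 and 8.88e-05). The Cox6b2 window (minus strand, chr7:4753045-4753344), printed as that of the exception, holds none of the 4 strings.
Cox6b2: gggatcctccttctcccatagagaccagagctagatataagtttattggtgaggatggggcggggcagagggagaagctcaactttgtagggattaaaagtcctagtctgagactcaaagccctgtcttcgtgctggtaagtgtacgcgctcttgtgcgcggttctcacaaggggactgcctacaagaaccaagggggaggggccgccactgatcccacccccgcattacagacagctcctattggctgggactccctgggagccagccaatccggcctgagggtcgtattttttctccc

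Complex V, the ATP synthase, fell in 15 of 15 genes in both types, with medians of -0.96 and -1.07. Atp5b, the catalytic beta subunit, had the highest level of the 73 genes per kilobase of exon, a mean of 537 CPM in B16-GFP tumors, and its promoter window holds none of the 4 strings. Its level ran from 1575 to 3988 CPM (median 2162) in B16-GFP, from 779 to 1181 (979) in B16-IFNA4 and from 917 to 1395 (1051) in B16-IFNA9 tumors. No tumor of either IFN-I–secreting type reached the lowest B16-GFP tumor. Its log2 fold changes were -1.22 ± 0.12 (adjusted p = 4.17e-10) and -1.07 ± 0.12 (adjusted p = 1.06e-08). Atp5a1, the alpha subunit, fell likewise without overlap from 1097 ± 299 CPM to 565 ± 51.5 and 570 ± 71.0 CPM (-0.96 ± 0.11 and -0.94 ± 0.11, adjusted p = 9.52e-09 and 2.89e-08). Atp5o, the stalk subunit OSCP that couples the catalytic head to the membrane part, moved most, from 252 to 1095 CPM (median 346) in B16-GFP tumors to 114 to 196 (145) and 116 to 211 (142) CPM. The groups did not overlap, and the log2 fold changes were -1.49 ± 0.19 (adjusted p = 6.92e-08) and -1.55 ± 0.19 (adjusted p = 8.24e-08), or -1.19 and -1.26 without B16-GFP tumor 7. The 3 genes Atp5g1, Atp5g2 and Atp5g3 encode the same mature ring subunit c. They fell by close amounts, at -1.18 ± 0.20, -1.19 ± 0.19 and -1.20 ± 0.13 in B16-IFNA4 tumors and -1.24 ± 0.20, -1.10 ± 0.19 and -1.21 ± 0.13 in B16-IFNA9 tumors. For Atp5g2, 38.3% of the 50-base stretches are shared with other genes.

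**Figure D2:**
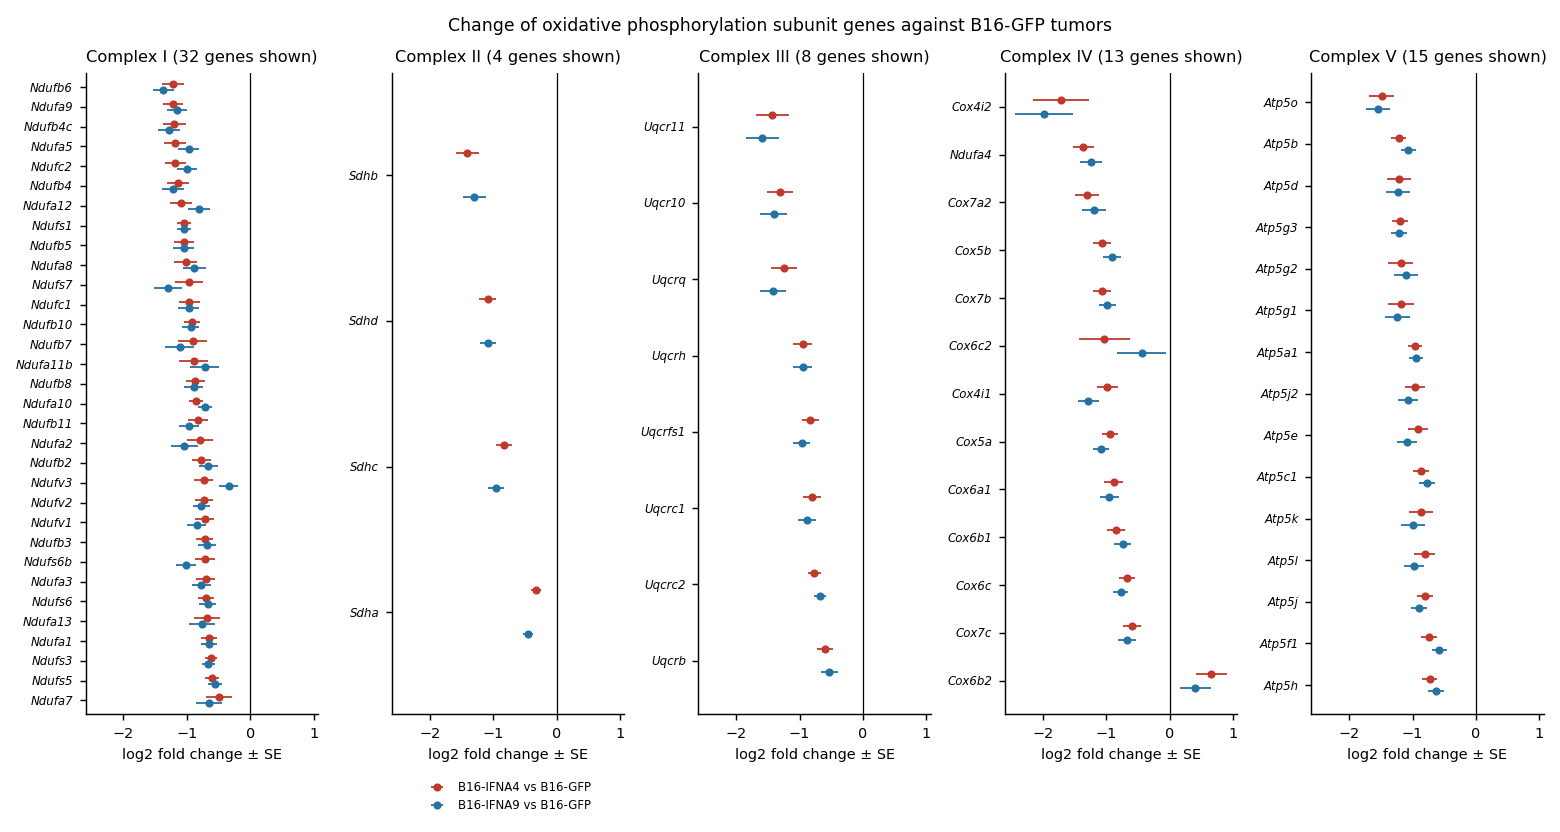
Log2 fold change of 72 of the 73 genes (x axis, points, with SE as bars) against B16-GFP tumors, in red for B16-IFNA4 and in blue for B16-IFNA9 tumors, with 1 panel per complex. All genes shown except Cox6b2 lie left of 0 in both comparisons, and Sdha lies nearer to 0 than the other genes of complex II.

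**Figure D3:**
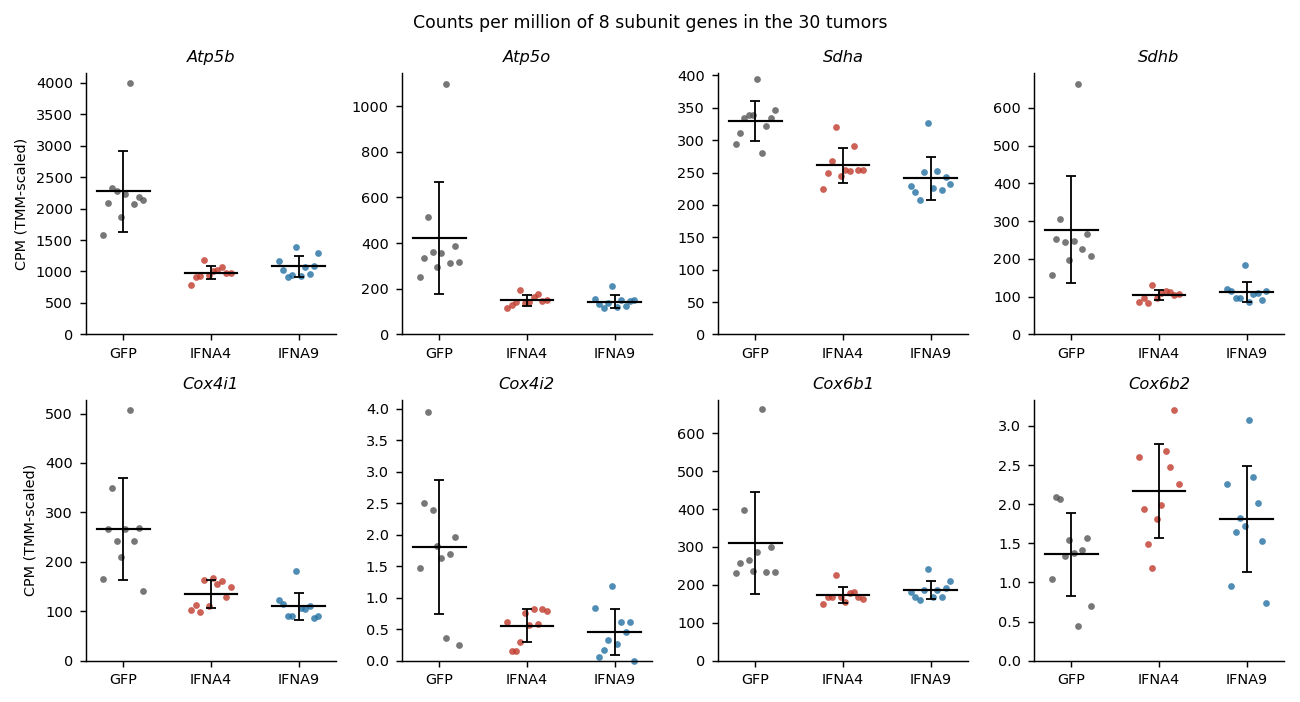
CPM (y axis, from 0) of 8 genes in each tumor, by tumor type (x axis); each point is 1 tumor, and the bars give the mean ± SD of 10 tumors. Atp5b and Atp5o separate B16-GFP tumors from both other types, Sdha overlaps between types while Sdhb falls further, and Cox4i2 and Cox6b2 lie at or below 3.95 CPM in all tumors.

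The tumors secreting IFNα9 and those secreting IFNα4 were then compared with each other. None of the 73 genes passed the edgeR test in either direction (0 higher and 0 lower), while 10.5% of all genes tested were higher and 7.25% lower in B16-IFNA9 tumors. At an unadjusted p under 0.05 there was 1 gene in edgeR and 1 in DESeq2, which called 0. The median log2 fold change over the 73 genes was -0.02, with 30 values above 0 and 43 below, and -0.01 over all genes. The 95% interval of the difference lay inside a 1.5-fold change in either direction for 61 of the 73 genes and inside a change of 1 on the log2 scale for 71. Ndufv3, a small accessory subunit of complex I, came closest to the threshold. It ran from 62.9 to 113 CPM (median 85.9) in B16-IFNA4, from 92.4 to 148 (109) in B16-IFNA9 and from 86.1 to 260 (135) in B16-GFP tumors. Its difference between B16-IFNA9 and B16-IFNA4 tumors was 0.38 ± 0.15 (95% interval 0.08 to 0.69, adjusted p = 0.0742), and it was the subunit of complex I without a call against B16-GFP tumors in B16-IFNA9 tumors (-0.34 ± 0.15, adjusted p = 0.0523). Without B16-GFP tumor 7 the adjusted p between the IFN-I–secreting types was 0.0294. Atp5b, by contrast, differed by 0.14 ± 0.12 (95% interval -0.10 to 0.38), Sdhb by 0.11 (-0.24 to 0.47) and Ndufs1 by 0.01 (-0.21 to 0.22).

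Other genes did separate the IFN-I–secreting types in the same tumors. Of 6 melanocyte genes, 5 were higher in B16-IFNA9 than in B16-IFNA4 tumors (median 0.76), and of 10 skeletal muscle genes 9 were lower (median -1.0). The muscle forms of complex IV, which were kept apart from the 73 genes, had log2 fold changes of -0.81 to -0.73 between these types. Of Cox6a2, Cox7a1 and Cox8b, 0 passed the edgeR test there, and 3 had an unadjusted p under 0.05. Against B16-GFP tumors 3 of 3 fell in B16-IFNA9 tumors (-0.98 to -0.92) and 0 of 3 were called in B16-IFNA4 tumors (-0.25 to -0.11). The summed level of the 3 muscle forms ran from 18.3 to 137 CPM in B16-GFP, from 26.9 to 78.5 in B16-IFNA4 and from 8.93 to 88.0 in B16-IFNA9 tumors, and B16-IFNA9 tumor 5 held the 88.0 CPM. The same tumor had the most skeletal muscle RNA of its type, 15695 CPM against a median of 4558 CPM. With this tumor and B16-GFP tumor 7 left out, 1 gene was higher in B16-IFNA9 than in B16-IFNA4 tumors (Ndufv3, 0.37, adjusted p = 0.0388) and 2 were lower (Cox4i1 at -0.41, adjusted p = 0.0245, and Sdha at -0.17, adjusted p = 0.04). This pair was left out after the data were examined. B16-IFNA9 tumor 5 held the highest Cox4i1 and Sdha levels of its type, so both lower calls follow in part from that choice.

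Lists of related mitochondrial genes were read in the same fits. Of all genes tested, 34.1% fell and 31.3% rose in B16-IFNA4 tumors, and 28.9% fell and 26.9% rose in B16-IFNA9 tumors. Of 42 assembly factors tested, which build the complexes without being part of them, 32 fell and 1 rose in B16-IFNA4 tumors (median -0.58), and 29 fell and 0 rose in B16-IFNA9 tumors (-0.43). Ndufaf8, an assembly factor of complex I, fell most, from 6.91 ± 4.06 CPM to 2.54 ± 0.601 and 2.68 ± 1.08 CPM (-1.44 ± 0.25 and -1.35 ± 0.25, adjusted p = 1.04e-05 and 3.76e-05). Cox18, which inserts a complex IV subunit into the membrane, rose in B16-IFNA4 tumors by 0.27 ± 0.11 (adjusted p = 0.0373); with edgeR's filterByExpr or with a replicate block 0 assembly factors rose. Of 13 genes of pyruvate dehydrogenase and the citric acid cycle, 11 fell in B16-IFNA4 (median -0.79) and 13 in B16-IFNA9 tumors (-0.73), led by Mdh2, mitochondrial malate dehydrogenase, at -1.22 ± 0.14 and -1.16 ± 0.14 (adjusted p = 1.66e-08 and 9.70e-08). Of 18 genes of cytochrome c, coenzyme Q synthesis and the carriers of the mitochondrial membranes, 13 and 15 fell (medians -0.61 and -0.62). Coq7, a hydroxylase of coenzyme Q synthesis, fell from 30.3 ± 12.5 CPM to 10.3 ± 1.89 and 12.6 ± 2.58 CPM, or -1.55 ± 0.16 and -1.27 ± 0.16 (adjusted p = 2.87e-09 and 2.28e-07).

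Among 13 regulators of mitochondrial gene expression, 9 fell in B16-IFNA4 and 7 in B16-IFNA9 tumors and 0 rose, with medians of -0.29 and -0.30. Over all genes tested, 34.1% and 28.9% fell in these comparisons. Ppargc1a, which encodes PGC-1α, had 444 ± 126 CPM (SD, n = 10) in B16-GFP, 159 ± 22.9 in B16-IFNA4 and 290 ± 102 in B16-IFNA9 tumors. Its log2 fold changes were -1.49 ± 0.16 (adjusted p = 2.89e-09) and -0.62 ± 0.16 (adjusted p = 0.00136), and it was higher in B16-IFNA9 than in B16-IFNA4 tumors by 0.87 ± 0.16 (adjusted p = 2.03e-04). Esrra, which encodes a receptor that PGC-1α activates, changed by -0.58 ± 0.22 and -0.91 ± 0.22 (adjusted p = 0.0191 and 7.62e-04). Esrra encodes one of the receptors whose letters were searched in the promoters, and Esrrg, the gene of another, was at 0.37 ± 0.31 and -0.06 ± 0.31 (adjusted p = 0.293 and 0.88). Of the genes for the other searched factors, Nrf1 changed by -0.55 ± 0.07 and -0.39 ± 0.07 (adjusted p = 8.64e-08 and 3.41e-05), Gabpa by -0.23 ± 0.07 (adjusted p = 0.00546) and -0.14 ± 0.07 (adjusted p = 0.0987), and Yy1 by -0.24 ± 0.07 and -0.07 ± 0.07 (adjusted p = 0.006 and 0.4). Of 12 genes induced by low oxygen, 8 fell and 1 rose in B16-IFNA4 tumors, and 7 fell and 1 rose in B16-IFNA9 tumors (medians -0.57 and -0.45). Adm, adrenomedullin, changed by -1.51 ± 0.17 and -1.27 ± 0.17 (adjusted p = 8.25e-09 and 3.51e-07). The gene that rose was Egln3 in B16-IFNA4 (0.46 ± 0.17, adjusted p = 0.0201) and Kdm3a in B16-IFNA9 tumors (0.30 ± 0.12, adjusted p = 0.0386), the latter without a call when B16-GFP tumor 7 was left out.

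**Figure D4:**
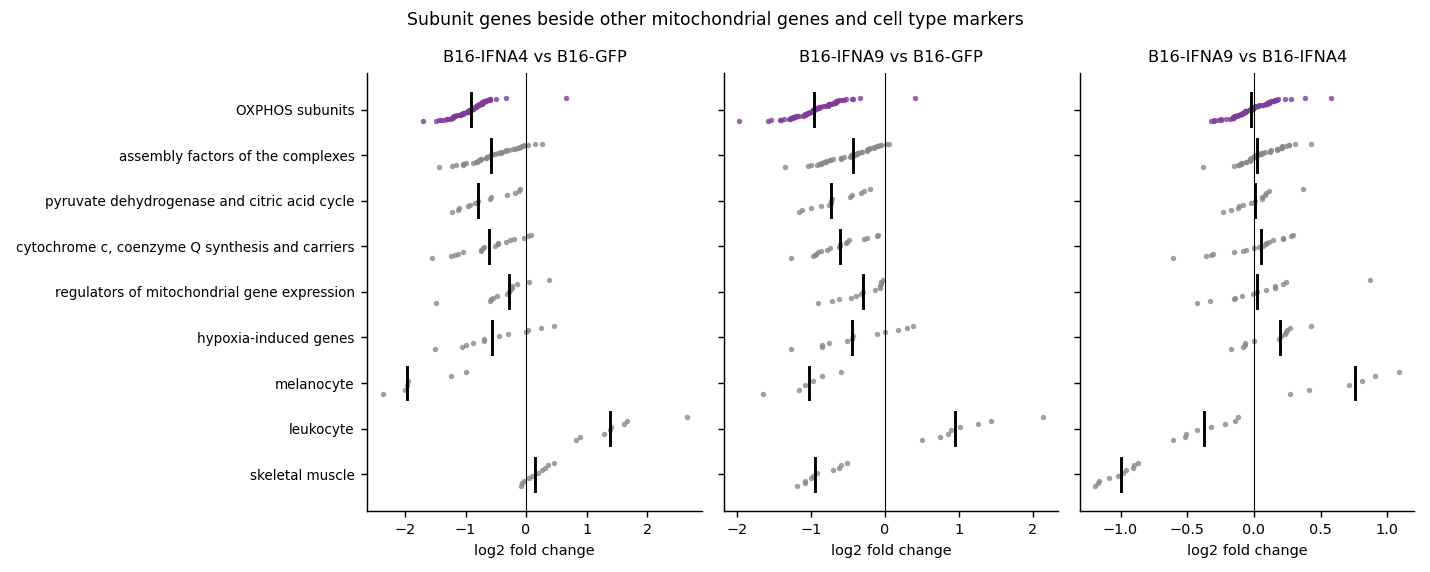
Log2 fold change (x axis) of each gene of the OXPHOS subunits (purple), of 5 lists of related genes and of 3 lists of cell type markers (gray) in the 3 comparisons; each point is 1 gene and the black bar is the median of the list. The medians of the subunit genes are -0.91, -0.96 and -0.02, while melanocyte genes move by -1.96, -1.03 and 0.76.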

How the data were processed

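Bulk RNA-seq of 30 whole tumors was analysed. The authors prepared stranded mRNA libraries, read 50 bases single-end, checked them with FastQC 0.11.3, aligned them with HISAT2 2.0.4 and deposited unnormalized counts per gene, made with SummarizeOverlaps. The build is mm10 in the submitters' processing notes and is named differently in the study's methods. Overlap mode, strand setting, multimapping and annotation release are not given in the sources used here, so genes with copies or overlapping partners are uncertain. Identifiers were matched to GENCODE M21 (GRCm38): 39495 of 39676 were found, and 62 of the 73 subunit genes had the same version. Sharing was counted as the percentage of a gene's 50-base stretches found in transcripts of other genes.

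Counts were analysed with edgeR 4.0.16 in R 4.3.3: genes averaging 10 counts or more, TMM, all 30 tumors in one quasi-likelihood fit, Benjamini-Hochberg adjustment over 15926 genes. The SE of a fold change came from its size and the F value of its test. Log2 CPM took a prior count of 2. Depth was 14598517 to 19788383 counts per tumor. No 2 tumors of a type agreed within sampling noise: the mean chi-square per gene was at least 14.1 over 11436 genes. The script was tested on simulated data. Plots used matplotlib 3.10.9.

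The genes and lists were chosen with earlier results of these data known. Named genes are the core and alternative-form subunits, the 4 largest rises and falls per comparison among called subunits, and the largest called rise and fall of each related list, 1 gene not being reported here; Uqcr10, Sdhc, Sdhd, Ndufv3, Ndufa7, Ndufb4, Ndufb4c, Cox6c2, Uqcrb, Nrf1, Gabpa, Yy1, Esrrg and Rgs5 were added after their values were seen. The ratio of Ndufa4l2 to Ndufa4 was not analysed here, so the ratio tests were adjusted over 3 comparisons. Alternatives were DESeq2 1.42.0, its size factors, library totals, filterByExpr, no filter, only the 20 tumors compared, a replicate block and, as libraries that stood apart, leaving out B16-GFP tumor 7, or that tumor and B16-IFNA9 tumor 5; the last was chosen after the data were examined. Markers of fat, keratinocytes and fibroblasts were fitted too: of 5, 5 and 4 genes tested, 0, 3 and 1 rose and 1, 0 and 0 fell in B16-IFNA4 tumors, and 0, 1 and 1 rose and 1, 0 and 0 fell in B16-IFNA9 tumors. Skeletal muscle genes gave 0 of 10 calls in B16-IFNA4 and 6 lower in B16-IFNA9 tumors.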

Additional observations from a re-analysis of the deposited data

Results flagged for a closer look

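Log2 CPM of 23 named subunit genes and of the means over each complex and over all 73 genes was searched in each tumor type for a tumor that lay far from the other 9, by Dixon's test at the 95% level. Over 87 groups of 10 tumors there were 27 such values, where chance flags about 1 in 20 groups (4.35 of 87); the 87 groups share tumors and are not independent. All but 1 were the highest value of B16-GFP tumor 7 (10 values) or of B16-IFNA9 tumor 5 (16 values).

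In B16-GFP tumor 7, the genes were Atp5b (11.96, others 10.62 to 11.18), Atp5g3 (9.23, others 7.95 to 8.37), Atp5o (10.10, others 7.98 to 9.01), Cox5a (7.22, others 5.91 to 6.42), Cox6b1 (9.37, others 7.85 to 8.64), Cox7a2 (9.18, others 7.09 to 8.02), Cox7b (9.53, others 7.98 to 8.61), Ndufa4 (9.92, others 8.23 to 8.79), Sdhb (9.37, others 7.31 to 8.26) and Uqcrfs1 (7.85, others 6.65 to 7.20). This tumor also had the highest summed melanocyte level (26030 CPM, type median 10011 CPM) and the lowest summed leukocyte level (278 CPM, type median 664 CPM) of its type. It was likewise the lowest of its type for fibroblast (2800 CPM, median 8416), keratinocyte (840, median 4376), macrophage (431, median 1279), pericyte and vascular smooth muscle (202, median 452), endothelial (172, median 334) and T and NK cell genes (4.38, median 16.6), while its erythroid sum was 2730 CPM (median 1062, highest 3019). Whether these go with its OXPHOS level was not tested.

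In B16-IFNA9 tumor 5, the genes were Atp5a1 (9.57, others 8.97 to 9.19), Atp5g1 (6.84, others 5.43 to 6.16), Atp5o (7.72, others 6.86 to 7.27), Cox4i1 (7.51, others 6.43 to 6.94), Ndufv1 (6.41, others 5.36 to 5.90), Sdha (8.35, others 7.69 to 7.98), Sdhb (7.52, others 6.44 to 6.92), Uqcr11 (5.49, others 3.68 to 4.62), Uqcrc1 (7.31, others 6.41 to 6.88) and Uqcrq (5.57, others 4.18 to 4.82). The means were all members (6.44, others 5.64 to 5.95), complex I (5.93, others 5.16 to 5.42), complex II (7.47, others 6.67 to 7.00), complex III (6.69, others 5.93 to 6.21), complex IV (5.97, others 5.01 to 5.46) and complex V (7.56, others 6.83 to 7.14). This tumor had the highest summed level of skeletal muscle genes (15695 CPM, type median 4558 CPM) and of adipocyte genes (839 CPM, type median 320 CPM) and the lowest of leukocyte genes (928 CPM, type median 1544 CPM) in its type, and the highest of endothelial (222 CPM, type median 170 CPM) and of pericyte and vascular smooth muscle genes (251 CPM, type median 200 CPM). Their part was not tested. The remaining value was Cox6b1 in B16-IFNA4 tumor 4 (7.82, others 7.22 to 7.5).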

How the results depend on the processing

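Against B16-GFP tumors, the count of falling subunit genes was 70 to 72 of 73 in B16-IFNA4 tumors and 70 to 71 in B16-IFNA9 tumors under every alternative, 1 and 0 rose, and the medians stayed between -0.93 and -0.73 and between -0.96 and -0.78. The calls that changed were Ndufa7, lost with library totals, no filter, the replicate block or B16-GFP tumor 7 left out (with or without B16-IFNA9 tumor 5), Cox6c2, lost without that tumor, and Ndufv3, gained with DESeq2 in B16-IFNA9 tumors (adjusted p = 0.0475). Between B16-IFNA9 and B16-IFNA4 tumors, where 0 genes were called, 1 was higher with library totals alone (Ndufv3, adjusted p = 0.022) and 1 without B16-GFP replicate 7 (Ndufv3), 2 with only the 20 tumors compared (Ndufv3, 0.38, adjusted p = 0.00579, and Ndufa12, 0.28, adjusted p = 0.0271), and 1 higher and 2 lower with B16-GFP tumor 7 and B16-IFNA9 tumor 5 left out; the cause was not tested. The ratio of Cox4i2 to Cox4i1 passed its permutation test without B16-GFP replicate 7, at -0.75 and -0.87 (adjusted p = 0.0472 for both). With a prior count of 0.5 it did not (-0.59 and -0.95, adjusted p = 0.345 for both), and the cause was not tested. Subtracting the edgeR fold changes gave -0.73 and -0.70 against B16-GFP tumors and 0.02 between the IFN-I–secreting types, without a test. Replicate numbers did not pair the tumors: of 10 correlations of deviations per pair of types, 2, 2 and 0 were above 0.1, and 1, 1 and 0 tumors correlated best with their own number. With the replicate block 71 and 70 genes fell, with medians of -0.86 and -0.91, 0 differed between the IFN-I–secreting types, and the ratio differed by -0.44 and -0.57 (adjusted p = 0.551 for both). For the 23 subunits named by rule and reported no call was lost or reversed under any alternative run, and 2 (Cox4i1 and Sdha) were gained with both tumors left out. Depth limits Cox4i2 and Cox6b2, with at most 63 and 58 counts in a tumor.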

Other observations

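Ucp1, the proton leak of brown fat that runs across the same membrane, had 368 counts in B16-GFP tumor 6 and at most 7 in any other tumor, so that its log2 fold changes of -5.46 and -5.60 rest on 1 tumor. Among the symbols set aside as pseudogenes, Atp5l2-ps, of which 73.4% of the 50-base stretches are shared, had a mean of 882.0 counts, more than Cox4i2 and Cox6b2 together. B16-GFP tumor 1 held the lowest value of its type for 31 of the 73 genes and tumor 10 for 25, and B16-IFNA4 tumor 4 the highest of its type for 45.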
